A study of Danio rerio with 20 samples.

Results

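The region described here is a stretch of 268 bp on zebrafish chromosome 24, from position 21640622 to position 21640889 of the GRCz11 assembly. Its members are the CpGs in this interval covered by 10 or more reads in 4 or more samples of each group, with 4 groups of 5 samples. Of 19 positions recorded in the interval, 13 met this rule and 6 did not. The 6 positions left out held at most 3 reads in any sample and 20 reads in all, of which 0 were methylated. The 13 CpGs belong to 135 CpGs in 8 regions that passed the same rule over the whole study, and all 13 were covered in all 20 samples. They are numbered CpG 1 to CpG 13 by position. No gene was assigned to the region, because no annotation of this assembly was used.

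Gonads of AB strain zebrafish reared in the laboratory were sampled at 90 days of age, and chosen stretches of their DNA were measured by bisulfite amplicon sequencing. The groups compared were 3H control, 3H LPS, 6H control and 6H LPS, with 5 samples each. LPS samples came from fish that as larvae had been given lipopolysaccharide (LPS), an outer membrane component of Gram-negative bacteria, here from Pseudomonas aeruginosa, and control samples from fish of the same strain and age that the labels name only as controls. The labels leave the names 3H and 6H unexplained, and also the letter L, which stands before a number in each sample name. The same numbers recur in every group, and they are called replicates here. The labels give neither sex nor family, nor whether each sample is a separate fish. The p-values therefore rest on the spread from sample to sample, which may be technical.

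A CpG is a cytosine followed by a guanine, and in vertebrates a methyl group can be attached to this cytosine and copied when cells divide. Bisulfite converts unmethylated cytosine, which is then read as thymine, while methylated cytosine is still read as cytosine. The percent of reads with cytosine at a CpG is therefore taken as the share of methylated copies among the molecules of a mixed tissue. An intermediate level does not say which cells carry it. A thymine already present in the DNA sequence is read like an unmethylated cytosine, and sequence variants were not looked for at these CpGs. A gonad holds germ cells and somatic cells, whose methylation is known to differ at many sites, and ovary and testis also differ. The share of each cell type in these samples was not measured, so a change in cell makeup and a change of methylation within a cell type cannot be told apart.

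The depth was high and even along the region. The samples held from 419055 to 2046055 methylation calls in total, and the median number of reads at the 13 CpGs of a sample was from 1308 to 26965. Within a sample, the reads at the 13 CpGs differed by 0.288% to 1.02% of each other. LPS samples were read less deeply here than controls, with group medians of 10331 reads in 3H controls, 3336 in 3H LPS, 11451 in 6H controls and 2990 in 6H LPS samples. The 95% Wilson interval of a single value reached from 0.216 to 2.70 percentage points to either side. These intervals cover counting error only, and reads copied by PCR are not independent molecules.

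The profile along the region was uneven, with a high block at the start and low CpGs behind it. CpG 3 at 21640648 had the highest mean, 43.1% ± 3.45 (SD, n = 20), with a lowest value of 37.3%, a median of 42.8% and a highest value of 50.8%. CpG 5 at 21640666 followed with 39.0% ± 2.82 (SD, n = 20), from 36.0% over a median of 37.8% to 46.5%. CpG 4 at 21640651, only 3 bp from CpG 3 and between these CpGs, was lower at 25.8% ± 2.78 (SD, n = 20), from 21.9% over 25.2% to 31.9%. The dip at CpG 4 was present in every library, since CpG 5 exceeded CpG 4 in 20 of 20 samples, whereas CpG 3 exceeded CpG 5 in 17 of 20.

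Beyond CpG 5 the level fell. CpG 6 at 21640685 was at 11.1% ± 1.58 (SD, n = 20), CpG 7 at 21640703 at 7.04% ± 0.980 (SD, n = 20) and CpG 8 at 21640721 at 5.67% ± 0.922 (SD, n = 20). CpG 6 lay above CpG 7 in 20 of 20 samples and CpG 7 above CpG 8 in 17. After a gap without a tested CpG, CpG 9 at 21640786 was at 4.02% ± 0.851 (SD, n = 20).

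A second, smaller rise followed at CpG 10 and CpG 11. CpG 10 at 21640811 was at 12.99% ± 1.57 (SD, n = 20), from 10.4% to 16.2%, and CpG 11 at 21640828 was at 13.8% ± 1.62 (SD, n = 20), from 11.7% to 17.9%. CpG 11 exceeded CpG 10 in 15 of 20 samples, and CpG 10 exceeded CpG 6 in 17. The last CpGs were low again, with CpG 12 at 21640873 at 5.27% ± 1.23 (SD, n = 20) and CpG 13 at 21640889 at 3.97% ± 0.687 (SD, n = 20). Among the 4 lowest CpGs the order was less fixed: CpG 8 exceeded CpG 12 in 10 of 20 samples and CpG 9 exceeded CpG 13 in 12.

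**Figure D1:**
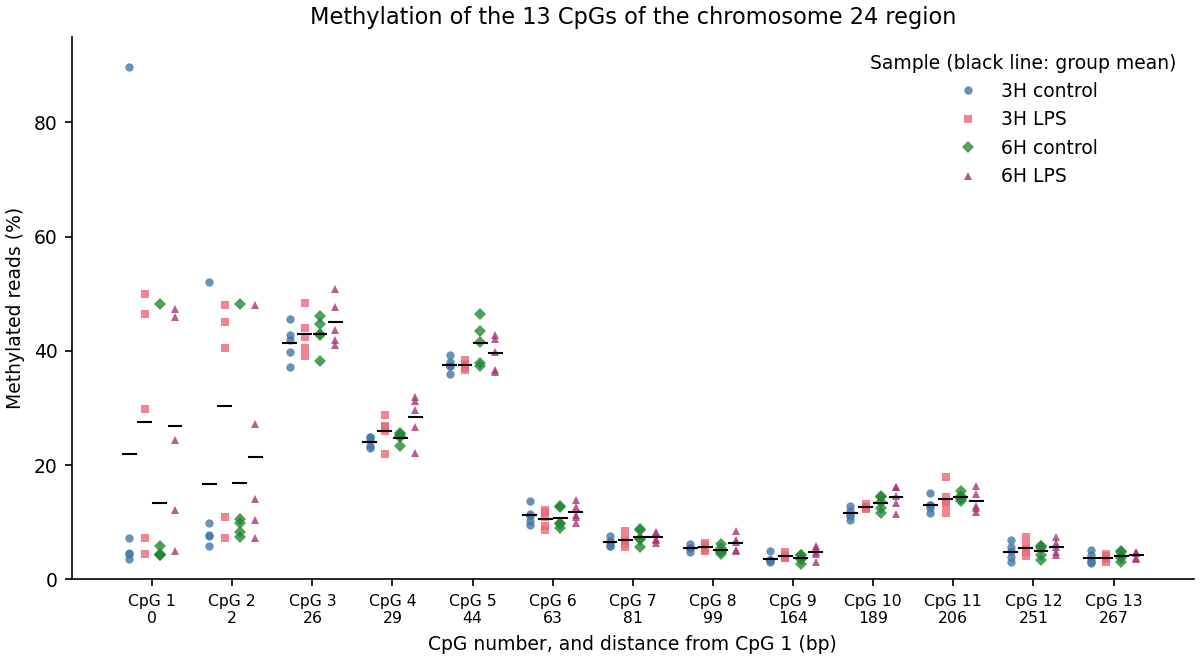
Percent of methylated reads at each of the 13 CpGs (y axis) by CpG number and distance from CpG 1 in bp (x axis), with 1 point per sample, 5 samples per group and black lines for group means. CpG 1 and CpG 2 spread over most of the scale, while the means of CpGs 3 to 13 have highs at CpG 3 and CpG 5 and a smaller rise at CpG 10 and CpG 11 in all groups.

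The first CpGs of the region behaved unlike the other 11. CpG 1 at 21640622 had a mean of 22.5% ± 24.3 (SD, n = 20) but a median of 7.24%, with values from 3.58% to 89.7%. CpG 2 at 21640624, 2 bp further on, had a mean of 21.3% ± 17.9 (SD, n = 20) and a median of 10.5%, from 5.87% to 52.1%. Their means therefore describe few samples, because the values fell on separate levels. With the 20 values in order, a CpG was counted as being at separate levels if a gap of 10 or more percentage points divided them and left 2 or more samples both above and below it. This held for 4 of the 135 CpGs of all regions, and 2 of these 4 were CpG 1 and CpG 2. The chromosome 10 region held 1 among its 9 CpGs and the chromosome 19 region 1 among its 7.

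At CpG 1, the 3H controls 1 to 5 were at 7.17%, 3.58%, 4.65%, 89.7% and 4.43%, and the 3H LPS samples 1 to 5 at 49.95%, 7.32%, 4.42%, 46.4% and 29.8%. The 6H controls 1 to 5 were at 48.3%, 4.51%, 4.23%, 5.80% and 4.22%. The 6H LPS samples 1 to 5 were at 45.9%, 12.2%, 4.90%, 47.3% and 24.5%. High samples occurred in every group, and the groups overlapped. The widest gap that left 2 or more samples both above and below it was 16.1 percentage points. Above it were 6 samples, from 45.9% to 89.7%, and below it 14, from 3.58% to 29.8% with a median of 4.78%. Neither level was tight. The value of 89.7% stood far above the next, 49.95%, and 24.5% and 29.8% stood apart from the next lower value, 12.2%. The upper samples were 1 of 5 in 3H controls, 2 of 5 in 3H LPS, 1 of 5 in 6H controls and 2 of 5 in 6H LPS samples.

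At CpG 2, the 3H controls 1 to 5 were at 9.83%, 7.71%, 7.63%, 52.1% and 5.87%, and the 3H LPS samples 1 to 5 at 48.0%, 10.9%, 7.27%, 40.5% and 45.1%. The 6H controls 1 to 5 were at 48.2%, 10.5%, 7.46%, 8.26% and 9.90%. The 6H LPS samples 1 to 5 were at 48.0%, 27.3%, 7.25%, 14.1% and 10.4%. Again each group held at least 1 high sample and the groups overlapped. The widest gap was 13.2 percentage points. Above it were 6 samples, from 40.5% to 52.1%, and below it 14, from 5.87% to 27.3% with a median of 9.05%. The gap just below it, from 14.1% to 27.3%, was nearly as wide. The side on which 6H LPS replicate 2 was counted, at 27.3%, is therefore uncertain. The upper samples were 1 of 5 in 3H controls, 3 of 5 in 3H LPS, 1 of 5 in 6H controls and 1 of 5 in 6H LPS samples.

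The number after the letter L in the labels, called the replicate number here, went with these levels. The labels do not say what L stands for. At CpG 1 the upper samples were 3 of the 4 samples numbered 1 and 3 of the 4 numbered 4, and 0 of the 4 samples of each other number. The 0 for number 5 depends on which gap was taken. The LPS samples numbered 5, at 29.8% (3H) and 24.5% (6H), lay below that gap but apart from the next lower value, 12.2%. At CpG 2 they were 3 of 4 numbered 1, 2 of 4 numbered 4 and 1 of 4 numbered 5. This was seen after the values were known and was not tested.

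The same samples were mostly high at both CpGs: 5 were on the upper level at both, 13 on the lower level at both, and 2 differed. These counts depend on where the gaps were set. The samples that differed did so beyond counting error. In 3H LPS replicate 5, CpG 1 was at 29.8% (95% Wilson interval 28.3% to 31.4%) and CpG 2 at 45.1% (43.4% to 46.8%). In 6H LPS replicate 4 the order was the opposite, with CpG 1 at 47.3% (95% Wilson interval 45.2% to 49.4%) and CpG 2 at 14.1% (12.7% to 15.6%).

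Other samples also set these neighbouring CpGs apart. In 3H control replicate 4, CpG 1 reached 89.7% (95% Wilson interval 88.9% to 90.5%), while CpG 2 was at 52.1% (50.8% to 53.5%). In 6H LPS replicate 5, CpG 1 was at 24.5% (95% Wilson interval 22.9% to 26.0%) against 10.4% (9.39% to 11.6%) at CpG 2, and in 6H LPS replicate 2 it was at 12.2% (10.5% to 14.05%) against 27.3% (24.9% to 29.8%). So of the 5 samples high at both CpGs, 1 was far higher at CpG 1, and samples between the levels differed in which CpG was the higher.

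Since the samples fell on separate levels, no correlation of CpG 1 with CpG 2 was computed over all 20. Within the 13 samples on the lower level at both, Pearson's r was 0.384 (permutation p = 0.0793) and Spearman's was 0.516 (permutation p = 0.0727), and Pearson's r was 0.548 without the 2 samples farthest from the median. Neither passed 0.05. Within each level, the values of these CpGs also did not go with those of CpGs 3 to 13 in a way that passed a test. Whether upper and lower samples differed at CpGs 3 to 13 was not tested. For CpG 1, r with the 11 other CpGs was from -0.154 to 0.508 among the 14 lower samples. Among the 6 upper samples it was from -0.637 to 0.449, and 0 of all these relations had a permutation p under 0.05. The upper samples include the value of 89.7%, far above the others, on which r can rest. By rank, rho among them was from -0.714 (CpG 4) to 0.314 (CpG 13). With CpG 6, rho was -0.0857 where r was 0.449. For CpG 2, r was from -0.195 to 0.758 among the 14 lower samples, where 3 had a permutation p under 0.05 and 0 passed after adjustment (lowest adjusted p = 0.117), and from -0.200 to 0.606 among the 6 upper samples. These 3 were CpG 4 (r = 0.758, rho = 0.371), CpG 10 (r = 0.744, rho = 0.626) and CpG 3 (r = 0.530, rho = 0.323). By rank, only CpG 10 of these had a permutation p under 0.05 (p = 0.0194). The lower samples include 6H LPS replicate 2 at 27.3%, on which r can rest.

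**Figure D2:**
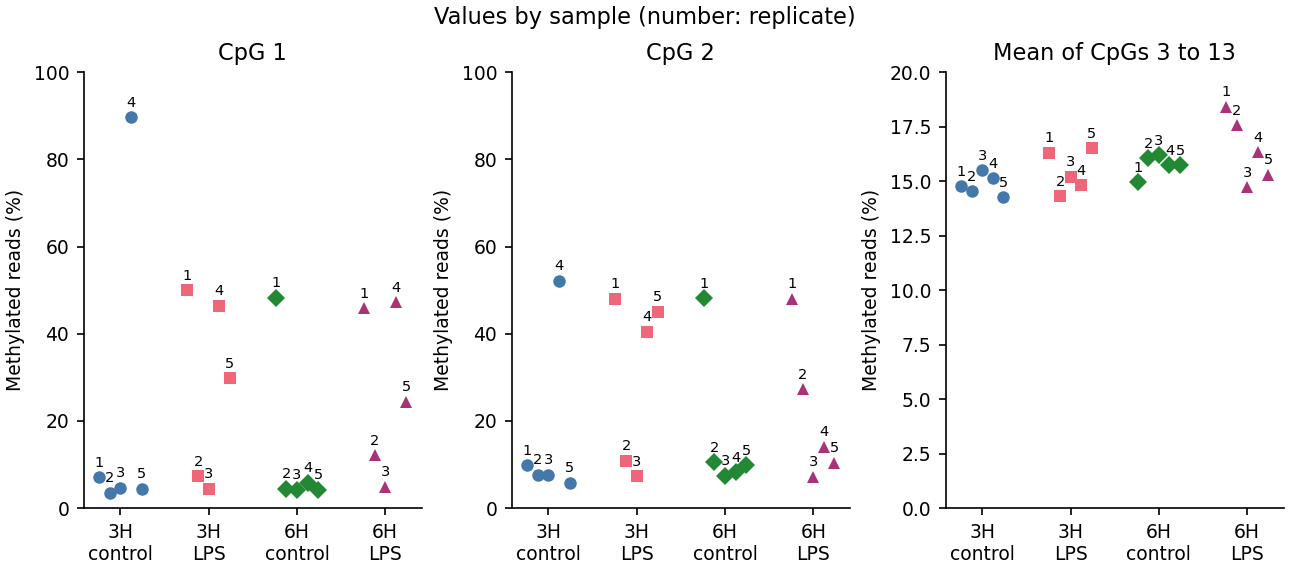
Percent of methylated reads (y axis) by sample in the 4 groups (x axis), for CpG 1, CpG 2 and the mean of CpGs 3 to 13, with replicate numbers at the points. At CpG 1 and CpG 2 most samples lie low and 6 samples lie at 40.5% or above, whereas the mean of CpGs 3 to 13 lies between 14.3% and 18.4% in all 20 samples.

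These 2 CpGs set most of the variation of the region as a whole. The region mean over 13 CpGs was 16.6% ± 3.49 (SD, n = 20), and CpG 1 accounted for 49.3% and CpG 2 for 37.3% of its variance between samples. The 11 other CpGs together accounted for 13.4%. Their own mean, over CpGs 3 to 13, was 15.6% ± 1.07 (SD, n = 20).

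Over CpGs 3 to 13 the profiles of any 2 samples correlated with Pearson r from 0.974 to 0.999 (median 0.992 over 190 pairs of samples). This describes CpGs that share their libraries, and with CpG means from 3.97% to 43.1% it stays near 1 even where single CpGs change places, as the 4 lowest CpGs did. The spread between samples was larger than read sampling gives: the variance between samples was from 5.94 times (CpG 13) to 23.95 times (CpG 3) the variance expected from counting reads. At CpG 1 and CpG 2 this ratio was 2042 and 1009.

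The first of the chromosome 5 regions, with 24 CpGs, was the one most like this region in level. Its CpG means ran from 4.12% to 49.3%, against 3.97% to 43.1% on chromosome 24. The median SD between samples was 4.76 percentage points there and 1.57 percentage points over CpGs 3 to 13 on chromosome 24. That region was read less deeply, with a median per sample from 22 to 4758 reads, and the part of depth in this difference was not tested. It had 0 CpGs at separate levels.

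Which CpGs varied together was asked over the 55 pairs among CpGs 3 to 13, with Pearson's r over 20 samples, 100000 permutations and adjustment over the 1161 pairs within regions of the whole study that hold no CpG at separate levels. CpGs of one pair share their libraries and often their reads. Of the 55 pairs, 50 had r above 0 (70.1% over all regions), and r ranged from -0.338 to 0.761 with a median of 0.274. At an unadjusted permutation p under 0.05 there were 12 of 55 pairs (27% over all regions). After adjustment 6 of 55 pairs passed, or 10.9%, where the share over all 1161 pairs was 18%. The share of pairs that passed was lower than over all regions, while the share above 0 and the median r (0.176 over all regions) were higher, and these differences were not tested.

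The strongest link joined CpG 3 and CpG 12, which lie 225 bp apart near opposite ends. Their r was 0.761 (permutation p = 8.00e-05, adjusted p = 0.00202) and rho was 0.776 (permutation p = 0.00011, adjusted p = 0.00399), with r = 0.711 without the 2 farthest samples. It was present in both sets, with r = 0.700 over the 3H samples and 0.863 over the 6H samples. Samples low at one were low at the other: 3H control replicate 5 had the lowest value at both, 37.3% at CpG 3 and 3.00% at CpG 12, and 6H LPS replicate 1 had the highest value at both, 50.8% and 7.43%.

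The next link joined CpG 4 and CpG 10, 160 bp apart. Their r was 0.750 (permutation p = 0.00025, adjusted p = 0.00447) and rho was 0.666 (permutation p = 0.0018, adjusted p = 0.0247). It was 0.509 without the 2 farthest samples, and it was larger over the 6H samples (r = 0.874) than over the 3H samples (r = 0.388), a difference that was not tested. By treatment, r was 0.868 over LPS samples and 0.455 over controls, which was not tested either. The 6H LPS samples 1, 2 and 4 held the 3 highest values at CpG 4, 31.3%, 31.9% and 29.7%, and were at 16.2%, 16.1% and 14.6% at CpG 10.

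**Figure D3:**
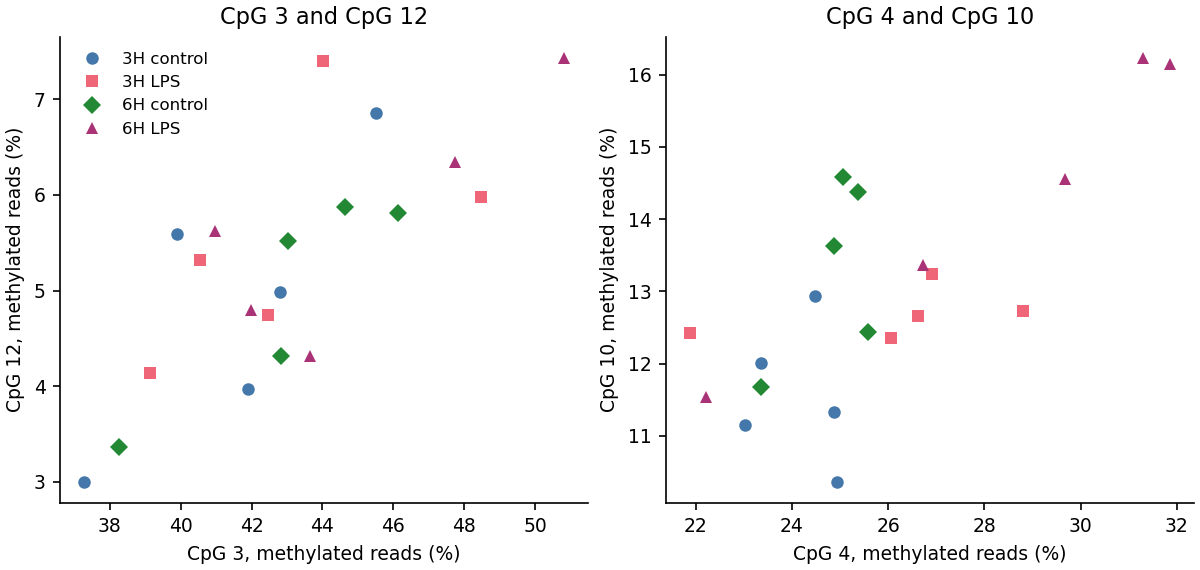
Percent of methylated reads at CpG 12 against CpG 3 (left) and at CpG 10 against CpG 4 (right), both axes in percent and 1 point per sample. CpG 3 and CpG 12 rise together in all groups (r = 0.761), while for CpG 4 and CpG 10 (r = 0.750) the upper right corner is held by 6H LPS samples.

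The 4 other pairs that passed by Pearson's r were weaker and did not pass by rank. CpG 3 and CpG 4, 3 bp apart, had r = 0.646 (permutation p = 0.00212, adjusted p = 0.0184) and rho = 0.522 (permutation p = 0.0202, adjusted p = 0.113). Without the 2 farthest samples r was 0.463, and over controls alone it was 0.00831, against 0.807 over LPS samples. CpG 4 and CpG 9 had r = 0.611 (permutation p = 0.00414, adjusted p = 0.0291) and rho = 0.502 (permutation p = 0.0251, adjusted p = 0.131). Their relation went in opposite directions in controls (r = -0.613) and LPS samples (r = 0.769), a difference that was not tested, and r was 0.431 without the 2 farthest samples.

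CpG 9 and CpG 10 had r = 0.601 (permutation p = 0.00509, adjusted p = 0.0328), rho = 0.502 (permutation p = 0.0256, adjusted p = 0.133) and r = 0.383 without the 2 farthest samples. CpG 3 and CpG 7 had r = 0.571 (permutation p = 0.00799, adjusted p = 0.0455), rho = 0.468 (permutation p = 0.0393, adjusted p = 0.182) and r = 0.421 without the 2 farthest samples. By Spearman's rho 46 of 55 pairs were above 0 (77.3% over all regions), 13 had an unadjusted permutation p under 0.05 (23.8%) and 3 passed after adjustment (10.1%), and the pair of CpG 3 and CpG 5 was among them (rho = 0.654, adjusted p = 0.0269 by permutation). Without 6H LPS replicate 1, which had the highest value at 5 of the 11 CpGs, the pairs of CpG 3 with 4, CpG 4 with 9, CpG 9 with 10 and CpG 3 with 7 no longer passed, at r = 0.534, 0.491, 0.468 and 0.514. The pairs of CpG 4 with 9 and CpG 9 with 10 were also lost without 3H control replicate 1 or 6H LPS replicate 3 or 4, and that of CpG 9 with 10 without 3H control replicate 3 or 6H LPS replicate 2.

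Taking each sample's deviation from its group mean removed differences between groups from these relations. By this measure 42 of 55 pairs were above 0 (66.6% over all regions), 10 had an unadjusted permutation p under 0.05 (25.5%) and 3 passed after adjustment (10.9%). They were CpG 3 with CpG 12 (r = 0.756, adjusted p = 0.0140 by permutation within groups), CpG 4 with CpG 10 (r = 0.696, adjusted p = 0.0346) and CpG 5 with CpG 12 (r = 0.590, adjusted p = 0.0459). The pairs of CpG 3 with 12 and CpG 4 with 10 were the only ones that passed by Pearson's r, by rank and by deviations from group means.

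Strong links were not limited to close neighbours. The 10 pairs of neighbours among CpGs 3 to 13 had r from -0.0432 to 0.646 with a median of 0.348, and the other pairs had a median of 0.266. CpG 8 was the least linked over all 20 samples, with a median r of 0.0673 and its lowest r, -0.338, with CpG 5. That r was -0.0921 without the 2 farthest samples. The sets differed: r of CpG 8 ran from 0.0440 (CpG 7) to 0.565 (CpG 13) over the 3H samples. Over the 6H samples it ran from -0.532 (CpG 5) to 0.0990 (CpG 9), and this difference was not tested. CpG 10 and CpG 3 had the highest median r with the other CpGs, 0.440 and 0.436, and CpG 4 followed with 0.383. The first principal component of the 11 CpGs held 37.0% of their variance, the second 17.1% and the third 11.7%. Most of the variance therefore lay outside the first component, whose loadings ran from 0.0233 (CpG 8) to 0.419 (CpG 3). How these shares compare with those of unrelated CpGs was not tested.

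**Figure D4:**
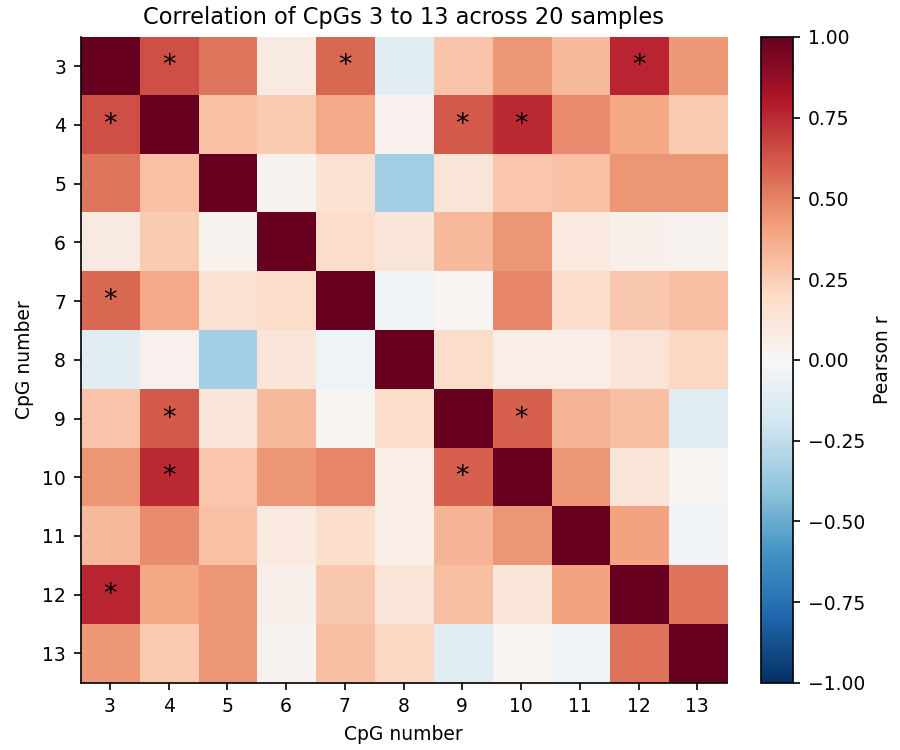
Pearson r over 20 samples for each pair among CpGs 3 to 13 (both axes: CpG number; colour: r from -1 to 1), with stars on the 6 pairs past an adjusted permutation p of 0.05. Stars lie on pairs of CpG 3 with 4, 7 and 12 and of CpGs 4, 9 and 10, and CpG 8 is pale against most others, with its lowest value, -0.338, against CpG 5.

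LPS and control samples were compared to learn whether gonads of fish exposed as larvae differed in methylation here. In the 3H set the region mean of controls was 15.5% ± 4.61 (SD, n = 5) and that of LPS samples 17.5% ± 3.62 (SD, n = 5). LPS minus control was 1.98 percentage points with a 95% interval of the exact permutation test from -4.66 to 7.26 (exact permutation p = 0.452, adjusted p = 0.517 over 8 regions, of which 25% passed). The difference was 4.03 without 3H control replicate 4, the sample at 89.7% at CpG 1, and did not pass there either. Over CpGs 3 to 13, the 3H controls 1 to 5 were at 14.8%, 14.5%, 15.5%, 15.1% and 14.3%, and the 3H LPS samples at 16.3%, 14.3%, 15.2%, 14.8% and 16.5%. LPS replicates 1 and 5 lay above all controls and the other 3 among them, and the difference of 0.583 percentage points had an interval from -0.569 to 1.75 (exact permutation p = 0.254, adjusted p = 0.432). It was 0.365 without LPS replicate 1 and 0.314 without LPS replicate 5.

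In the 3H set no CpG of the region passed with edgeR, which models methylated and unmethylated read counts (0 of 13, lowest adjusted p = 0.698), as in all regions (0% of 135). At an unadjusted p under 0.05 there were 0 of 13 with edgeR (10.4% of 135) and 0 with limma. The exact permutation test had 1 (7.41% of 135), CpG 10. CpG 10 was at 12.01%, 11.2%, 10.4%, 12.9% and 11.3% in 3H controls 1 to 5 and at 12.7%, 12.4%, 12.4%, 12.7% and 13.2% in 3H LPS samples. The LPS samples were close together at the upper end of the control range, and the difference was 1.12 percentage points with an interval from 0.0331 to 2.14 (exact permutation p = 0.0476, not past the threshold after adjustment, edgeR adjusted p = 0.751). CpG 1 differed by 5.68 percentage points and CpG 2 by 13.7, with intervals from -41.3 to 43.7 and from -19.9 to 39.2. The groups overlapped at all 13 CpGs, where 1.48% of the 135 CpGs had groups that did not overlap.

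In the 6H set the region mean of controls was 15.6% ± 2.48 (SD, n = 5) and that of LPS samples 17.7% ± 3.53 (SD, n = 5). LPS minus control was 2.01 percentage points with an interval from -2.73 to 6.17 (exact permutation p = 0.349, adjusted p = 0.559, with 0% of 8 regions past the threshold). It was 0.724 without 6H LPS replicate 1 and 3.12 without 6H control replicate 1. Over CpGs 3 to 13, the 6H controls 1 to 5 were at 14.9%, 16.1%, 16.2%, 15.7% and 15.7%, and the 6H LPS samples at 18.4%, 17.6%, 14.7%, 16.3% and 15.3%. LPS samples 1, 2 and 4 lay above all controls and LPS sample 3 below all, so the LPS group was wider (SD 1.54 against 0.485) and the difference of 0.734 had an interval from -0.965 to 2.63 (exact permutation p = 0.357, adjusted p = 0.584). It was 0.245 without LPS replicate 1, 0.457 without LPS replicate 2 and 1.17 without LPS replicate 3.

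Again no CpG of the region passed in the 6H set with edgeR (0 of 13, lowest adjusted p = 0.977; 0.741% of 135). At an unadjusted p under 0.05 there were 0 of 13 with edgeR (7.41% of 135), 0 with limma and 0 with the exact permutation test (4.44% of 135). CpG 4 had the largest difference among CpGs 3 to 13. It was at 25.1%, 25.6%, 24.9%, 25.4% and 23.3% in 6H controls 1 to 5 and at 31.3%, 31.9%, 22.2%, 29.7% and 26.7% in 6H LPS samples. All LPS samples but replicate 3 lay above all controls, while replicate 3 lay below all, and the difference was 3.51 percentage points with an interval from -1.005 to 7.11 (exact permutation p = 0.0952). CpG 1 differed by 13.5 (interval -17.7 to 42.2) and CpG 2 by 4.56 (interval -20.2 to 29.0) percentage points. The groups overlapped at all 13 CpGs (1.48% of 135 did not overlap).

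Over both sets, with permutation within sets, the region mean differed by 1.999 percentage points (exact permutation p = 0.221, adjusted p = 0.488, with 0% of 8 regions past the threshold) and the mean of CpGs 3 to 13 by 0.658 (exact permutation p = 0.137, adjusted p = 0.547), or 0.414 without 6H LPS replicate 1. With edgeR 0 of 13 CpGs passed (lowest adjusted p = 0.816; 0.741% of 135), and 0 had an unadjusted p under 0.05 with edgeR (4.44% of 135) or limma. The exact permutation test had 2 (6.67% of 135), CpG 4, higher by 2.71 percentage points in LPS samples (exact permutation p = 0.0236, adjusted p = 0.541), and CpG 9 with 0.765 (exact permutation p = 0.0424, adjusted p = 0.635). At CpG 4 the group means were 24.1% ± 0.880 in 3H controls, 26.1% ± 2.55 in 3H LPS, 24.8% ± 0.881 in 6H controls and 28.4% ± 3.97 in 6H LPS samples (SD, n = 5 each), so both LPS groups were wider than both control groups. At CpG 9 they were 3.61% ± 0.755, 4.09% ± 0.462, 3.67% ± 0.644 and 4.72% ± 1.12 in the same order.

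Most differences between LPS and control samples were above 0, without passing any test. This held for 11 of 13 CpGs in the 3H set, 10 of 13 in the 6H set and 12 of 13 over both sets, where the counts over all 135 CpGs were 35, 91 and 54. The median differences were 0.634, 1.03 and 0.679 percentage points, against -0.212, 0.11 and -0.0518 over all 135 CpGs. CpGs of one region share samples and reads, so these counts are not counts of independent events. Depth, which was lower in LPS samples, was compared with the mean of CpGs 3 to 13 over 20 samples, on a log10 scale of reads. Pearson's r was -0.194 (permutation p = 0.419) and Spearman's was -0.134 (permutation p = 0.576), and Pearson's r was 0.0848 without the 2 farthest samples.

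The control groups of both sets were set against each other to see their distance without LPS. The 6H minus 3H region mean was 0.114 percentage points with an interval from -4.40 to 4.31 (exact permutation p = 0.976, adjusted p = 0.976, where 25% of 8 regions passed), a value that was 2.16 without 3H control replicate 4 and -0.992 without 6H control replicate 1. Over CpGs 3 to 13 the 6H controls were higher, at 15.7% ± 0.485 (SD, n = 5) against 14.8% ± 0.491 (SD, n = 5). The difference, 0.887 percentage points, had an interval from 0.181 to 1.56 (exact permutation p = 0.0238) but did not pass over 8 regions (adjusted p = 0.0635). It passed without 6H control replicate 1, at 1.08 (exact permutation, adjusted p = 0.0423).

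With edgeR 0 of 13 CpGs passed between the control groups (lowest adjusted p = 0.681; 0% of 135), and 0 had an unadjusted p under 0.05 with edgeR (8.89% of 135) or limma. The exact permutation test had 1 (6.67% of 135), again CpG 10, at 14.6%, 12.4%, 13.6%, 14.4% and 11.7% in 6H controls 1 to 5. Of these, 3 lay above all 3H controls, and the difference was 1.78 percentage points with an interval from 0.00884 to 3.34 (exact permutation p = 0.0476, edgeR adjusted p = 0.681). This comparison and that of LPS with control in the 3H set share the 3H controls, the lowest group at CpG 10. CpG 5 differed most among CpGs 3 to 13, by 3.72 percentage points, with 6H controls 1 to 5 at 37.4%, 43.4%, 41.5%, 37.9% and 46.5% and 3H controls between 36.0% and 39.3% (exact permutation p = 0.0873). The groups overlapped at all 13 CpGs (2.22% of 135 did not overlap).

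LPS samples of the 6H set differed from those of the 3H set by 0.141 percentage points in the region mean (exact permutation p = 0.952, adjusted p = 0.984, with 0% of 8 regions past the threshold, interval -5.71 to 5.03) and by 1.04 over CpGs 3 to 13 (exact permutation p = 0.238, adjusted p = 0.476, interval -0.876 to 3.22), the latter being 0.550 without 6H LPS replicate 1. With edgeR 0 of 13 CpGs passed (lowest adjusted p = 0.986; 0% of 135), 0 had an unadjusted p under 0.05 with edgeR (9.63% of 135) or limma, and the exact permutation test had 0 (8.89% of 135). The LPS effect in the 6H set minus that in the 3H set was 0.0278 percentage points for the region mean (permutation p = 0.993, adjusted p = 0.993, where 25% of 8 regions passed) and 0.151 for CpGs 3 to 13 (permutation p = 0.857, adjusted p = 0.857). At single CpGs 0 of 13 passed with edgeR (lowest adjusted p = 0.794; 0.741% of 135), 0 had an unadjusted p under 0.05 with edgeR (11.1% of 135) or limma, and the permutation test had 0 (13.3% of 135). That test permutes set labels after centring each set and is approximate.

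**Figure D5:**
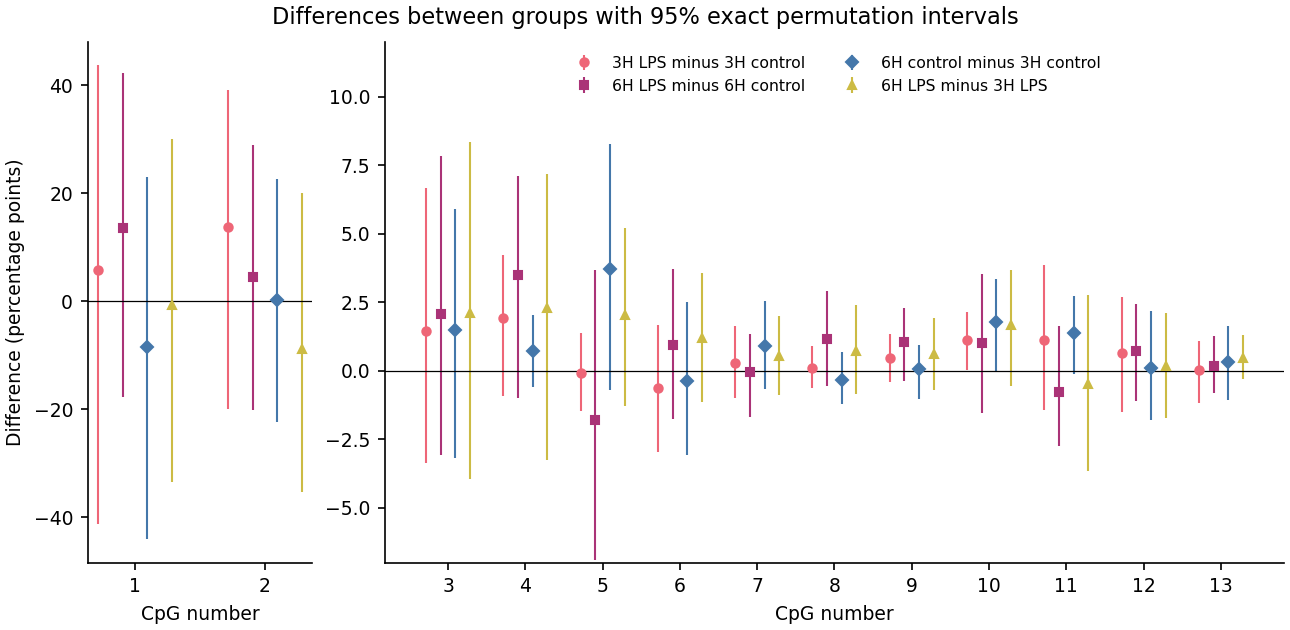
Differences between groups in percentage points (y axis) at each CpG (x axis), with bars for 95% intervals from the exact permutation test, for 4 comparisons of 5 against 5 samples; CpG 1 and CpG 2 have an axis of their own. Intervals are several times wider at CpG 1 and CpG 2 than at CpGs 3 to 13, and only those of CpG 10 in 2 comparisons lie above 0.

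The order of the 4 groups was not the same at all CpGs. Among CpGs 3 to 13, the 6H LPS group had the highest mean at 8 and the 6H controls at 3, and the 3H controls had the lowest mean at 8, the 3H LPS group at 2 and the 6H controls at 1. Over all 135 CpGs, the 6H LPS mean was above that of 3H LPS at 101 and above that of 6H controls at 91. The 3H control mean was below that of 3H LPS at 35 and below that of 6H controls at 47. The highest and lowest of the 4 groups were not counted over all 135. Single samples stood high at many CpGs: 6H LPS replicate 1 had the highest of 20 values at 5 of 11 CpGs and lay above the median at 10, and 3H LPS replicate 5 lay above the median at 10. The median SD over CpGs 3 to 13 was 1.59 percentage points in 6H LPS samples, against 0.967 in 3H controls, 1.02 in 3H LPS and 1.10 in 6H controls, and these spreads were not compared by a test.

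The region did not go together with any other region across samples in a way that passed. Over the 28 pairs of regions, the strongest relation of the region mean was with the chromosome 3 region, with r = -0.453 (permutation p = 0.0450, adjusted p = 0.368), rho = -0.411 (permutation p = 0.0726) and r = -0.511 without the 2 farthest samples. For the mean of CpGs 3 to 13 the relation strongest by Pearson's r was with the first chromosome 5 region, with r = 0.455 (permutation p = 0.0419, adjusted p = 0.235), rho = 0.438 (permutation p = 0.0541) and r = 0.268 without the 2 farthest samples. By rank, again without CpGs at separate levels, the chromosome 19 region stood slightly further from 0 (rho = -0.445, permutation p = 0.0512, adjusted p = 0.236). Without the 2 farthest samples the chromosome 10 region did (r = -0.593, against -0.285 over all 20 samples), so the ranking depended on the measure. With all CpGs kept, rho was 0.104 for the chromosome 19 region and r was 0.144 for the chromosome 10 region.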

How the data were processed

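Bisulfite amplicon sequencing of gonad DNA was analysed from the authors' deposited tables, which list each position with its methylated and unmethylated read counts and the percent methylated. The deposited counts were taken unchanged, and recomputing the deposited percent values from them gave no difference. Trim Galore 0.4.5, FastQC 0.11.6, Bowtie2, Bismark and the build GRCz11 are named in the submitters' processing notes, while tool settings are not given in the sources used. Positions are counted from 1. Bisulfite conversion was not measured here, so low percent values include unconverted and misread bases.

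A region is a run of 3 or more tested CpGs with steps of up to 500 bp, and its value in a sample is the plain mean percent of its CpGs. The main test of a CpG was the quasi-likelihood test of edgeR 4.0.16 in R 4.3.3, fitted once to the read counts of all 20 samples, each with its own intercept, and adjusted by Benjamini-Hochberg over 135 CpGs. Limma 3.58.1 on log2 ratios with 0.5 added to each count and exact permutation tests per CpG were alternatives. For limma, the share of the 135 CpGs at an unadjusted p under 0.05 was not computed, so its counts stand without one. Between groups, region values were tested by exact two-sided permutation, adjusted over 8 regions, where 5 against 5 samples can give no p below 0.00794. Intervals of differences are 95% intervals from inverting that test. Correlations used 100000 permutations, whose smallest p is 1e-05, and pairs with a CpG at separate levels were left out. Results passed at an adjusted p under 0.05. The edgeR test, the permutation tests between groups and the correlation test over all samples were first tried on simulated data. Limma, the intervals, the correlations within groups and the tests with the replicate number as a block were not. No samples held identical values. All 13 CpGs are named, and pairs past the threshold up to the 10 largest. The members, comparisons, alternatives and rules were chosen with earlier results of these data known. Python 3.11.15, numpy 2.4.6, pandas 2.3.3 and matplotlib 3.10.9 were used.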

Additional observations from a re-analysis of the deposited data

Results flagged for a closer look

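Single samples that stood apart from the 4 others of their group by Dixon's test were looked for at the 13 CpGs, in the region mean and in the mean of CpGs 3 to 13. Of 60 groups tested, 7 held such a sample, where chance gives about 1 in 20. The 7 are not independent, since CpG 1 and CpG 2 carry most of the variance of the region mean between samples. All but that at CpG 9 came from the 1 sample of each control group on the upper level at CpG 1 and CpG 2. They repeat those levels, so no conclusion is drawn from the count. In 3H control replicate 4, CpG 1 was at 89.7% and the remaining 3H controls ranged from 3.58% to 7.17%, CpG 2 was at 52.1% with the others from 5.87% to 9.83%, and the region mean was 23.7% with the others from 12.9% to 14.1%. In 6H control replicate 1, CpG 1 was at 48.3% and the remaining 6H controls ranged from 4.22% to 5.80%, CpG 2 was at 48.2% with the others from 7.46% to 10.5%, and the region mean was 20.1% with the others from 14.4% to 14.7%. In both control groups 1 sample was thus high at both CpGs. In 3H control replicate 2, CpG 9 was at 4.92% and the remaining 3H controls ranged from 2.98% to 3.47%. The LPS groups, with several high or intermediate samples at CpG 1 and CpG 2, held no single distant sample by this test.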

How the results depend on the processing

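The count of 0 CpGs called with edgeR held in all 6 comparisons under every alternative, among them coverage minimums of 5, 30 and 100 reads, limma and leaving out each sample. Region differences between LPS and control samples kept their direction without any 1 sample, from 1.03 to 4.03 percentage points in the 3H set, from 0.724 to 3.12 in the 6H set and from 1.35 to 3.02 over both. Differences near 0 turned. Without single samples, 6H minus 3H controls ran from -0.992 to 2.16, 6H minus 3H LPS samples from -1.15 to 1.21, and the difference between LPS effects from -2.02 to 1.13, or from -0.337 to 0.589 over CpGs 3 to 13. By medians, 6H minus 3H LPS samples and the difference between LPS effects were -1.33 and -2.13 (permutation test, adjusted p = 1 and 0.643), and LPS minus control was 5.43 in the 3H set, 3.30 in the 6H set and 4.37 over both, above the ranges without 1 sample, and 6H minus 3H controls 0.807. None of these passed. The cause was not tested. Of 55 pairs, 6 passed by Pearson's r, 3 by Spearman's rho and 3 by deviations from group means, and from 3 to 7 when 1 sample was left out, with 3 without 3H control replicate 1 or 6H LPS replicate 1, 3 or 4. The pairs of CpG 3 with 12 and CpG 4 with 10 passed without any 1 sample, with r from 0.701 to 0.808 and from 0.671 to 0.790. CpG 3 with 7 was lost without any 1 of 14 samples, on a logit scale and at 100 reads.

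The replicate numbers were not taken to pair the samples: over all 135 CpGs and 20 same-numbered pairs of samples, deviations correlated from -0.233 to 0.205, 4 were over 0.1, and 3 correlated best with their own number. At CpG 1, however, all 6 samples above the widest gap carried number 1 or 4, a count that depends on which gap was taken. With the replicate number as a block, 0 CpGs passed with edgeR in all 6 comparisons. For region differences between single groups, the block test can give no p below 0.0625. It could not pass there whatever the difference, so no conclusion is drawn from it. The region differences of LPS minus control over both sets and between LPS effects did not pass (block test, adjusted p = 0.349 and 0.984).

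At CpG 1 counting intervals of single values reached at most 2.10 percentage points to either side, and the interval of the 3H difference there ran from -41.3 to 43.7. The number of template molecules was not measured.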
